A study of Mus musculus with 9 samples.

Results

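Expression was compared between derivatives of 170#3, a mouse pancreatic cancer cell line, stably transfected either for beta-catenin or for ICAT (inhibitor of beta-catenin and TCF, gene Ctnnbip1). The comparison used 6 of the 9 arrays of the study, 3 for each line, taken by their titles. The other 3 arrays came from 170#3 cells with a control transfection and served only to say which line had left the control level. All cells had the same mixed background of the C57BL6, FVB and 129Sv strains and were cultured as adherent layers in DMEM with 10% serum. The labels call the 3 samples of a line biological replicates or independent, but do not say whether they came from separate transfections or clones, so the p-values measure the spread between these samples. No source used here describes the promoter or vector of the transfected genes.

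Each array was an Affymetrix array labelled from total RNA near the 3′ ends of transcripts, and each value is the deposited log2 expression of a probe set. Of 45037 probe sets, 18193 genes could be represented by 1 probe set with a single symbol, and 15235 of these reached a log2 value of 5 on at least 3 arrays and were tested with limma. A gene is called where the adjusted p was under 0.05. A difference is the mean of the beta-catenin arrays minus that of the ICAT arrays on the log2 scale, so 1 is a factor of 2. In RNA of a whole culture, fewer cells of a type and less RNA per cell cannot be told apart.

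Beta-catenin is held low in resting cells by a destruction complex of APC, AXIN, GSK3 and casein kinase that marks it for degradation. Wnt ligands bound to Frizzled and LRP receptors stop that complex, and stabilised beta-catenin enters the nucleus, where it activates genes together with TCF and LEF factors. ICAT is a small protein that binds the surface of beta-catenin on which TCF factors dock, so it works against this step. The 2 transfections therefore act on the same protein at neighbouring steps, and a direct comparison asks where the resulting lines lie apart.

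The medians of the arrays lay between 6.21 and 6.29. Within a line, arrays correlated at 0.997 or above for beta-catenin and at 0.9908 or above for ICAT, against 0.967 to 0.973 between the lines. The median SD of a gene was 0.0746 in beta-catenin and 0.121 in ICAT cells, against 0.0567 in control cells, so ICAT values carried the larger error. ICAT replicate 1 stood apart from the other two in several gene groups (among them interferon, acute-phase, cytokine, fibroblast, Id and ATF4 genes), and the counts or medians without it are given with those groups. Cdh1, the main epithelial cadherin, was under 3.56 on every array, while Vim, a mesenchymal filament, was between 13.76 and 14.28, and Epcam, an epithelial surface protein, was between 7.34 and 7.65. Krt8 and Krt18, keratins of simple epithelium, were called higher in ICAT. The log2 of the summed epithelial markers lay between 8.70 and 8.77 in beta-catenin, 9.24 and 9.87 in ICAT and 8.81 and 8.90 in control arrays. Of 13 immune markers 10 passed the filter, with means up to 8.28 for Cd14 in control cells, while Ptprc and Itgam did not, and of 8 endothelial markers 5 passed, with means up to 7.50 for Kdr in beta-catenin cells, while Cdh5, Tek and Vwf did not. The log2 of the summed immune markers lay between 9.97 and 10.01 in beta-catenin, 10.09 and 10.28 in ICAT and 10.20 and 10.25 in control arrays. For the mesenchymal or fibroblast markers it lay between 14.55 and 14.59 in beta-catenin, 15.38 and 15.50 in ICAT and 14.98 and 15.02 in control arrays.

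The lines differed at 5292 of 15235 genes (34.7%), of which 2976 (19.5%) were higher in beta-catenin cells and 2316 (15.2%) higher in ICAT cells. Most differences were small: 605 genes (3.97%) were called and at least 2-fold apart. Among these larger differences the balance turned, with 227 genes (1.49%) higher in beta-catenin and 378 (2.48%) higher in ICAT cells. The 3 beta-catenin and 3 ICAT arrays did not overlap at 7247 genes (47.6%), which is the background for statements that the arrays of the lines did not overlap. The shares of 34.7%, 19.5% and 15.2% are likewise the background for the counts of called genes in the lists below.

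Each called gene was then placed by which line had left control. Against the shared control arrays, 6658 genes (43.7%) were called for beta-catenin, 23.5% of all genes above and 20.2% below control, and 5079 (33.3%) for ICAT, 17% above and 16.3% below. Of the 5292 genes called between the lines, 1840 (34.8%) had left control in beta-catenin cells only, and 1384 (26.2%) in ICAT cells only. A further 1075 (20.3%) had moved the same way in both lines but to unequal extents, and 335 (6.33%) passed in neither comparison with control. The remaining 658 genes, 4.32% of all genes tested, lay on opposite sides of control: 358 (2.35%) with beta-catenin above and ICAT below, and 300 (1.97%) with ICAT above and beta-catenin below. The size of the opposite group depended on the control arrays, because leaving out control replicate 1, 2 or 3 lowered it to 361, 386 or 359 genes. Weighting the arrays by their quality raised it to 1013.

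**Figure D1:**
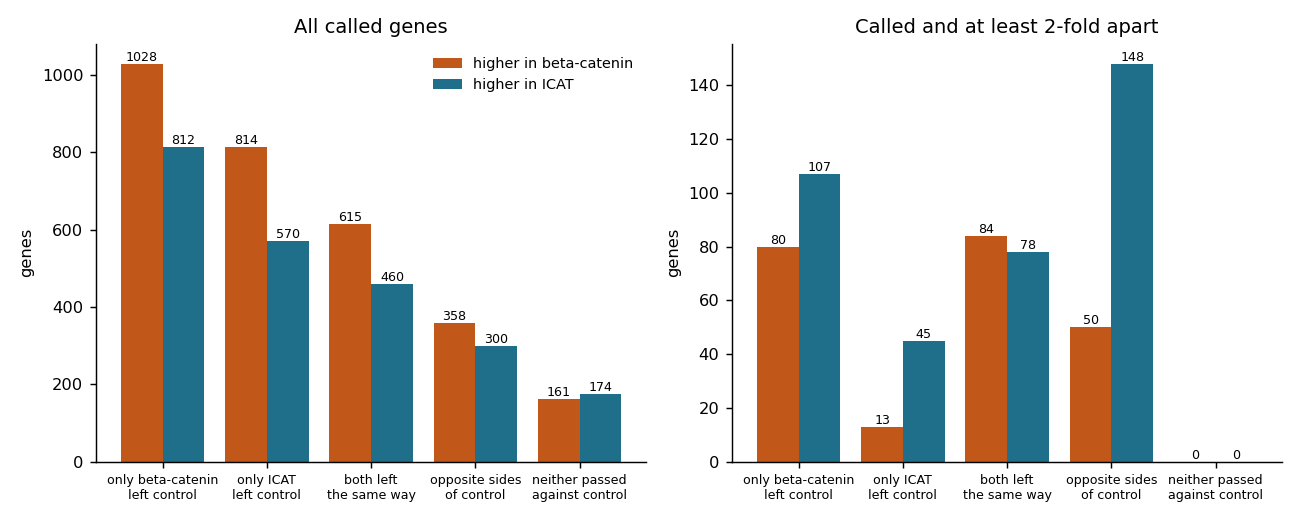
Number of genes called between the lines (left) and called with a difference of at least 2-fold (right), by which line differed from the control arrays; orange bars are genes higher in beta-catenin and blue bars genes higher in ICAT cells. Of the 605 genes at least 2-fold apart, 148 had ICAT above and beta-catenin below control, the tallest bar on the right.

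Because the difference between the lines is the sum of both departures for genes on opposite sides of control, the choice of these genes makes it larger, and their sizes are a description. Their median absolute difference was 0.79, beside 0.45 for genes that only beta-catenin moved, 0.44 for genes that only ICAT moved and 0.48 for genes moved the same way. They made up 198 of the 605 genes at least 2-fold apart, and 148 of these 198 were higher in ICAT. Of the 58 genes at least 2-fold apart that had left control in ICAT cells only, 13 were higher in beta-catenin and 45 higher in ICAT cells.

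The transcripts of the transfected genes did not separate the lines. Ctnnb1, which encodes beta-catenin, was 12.87, 12.89 and 12.89 on the beta-catenin arrays, 13.00, 12.86 and 12.78 on the ICAT arrays and 12.67 to 12.70 on the control arrays. The difference between the lines was 0.00 (SE 0.0792, adjusted p = 0.979). Ctnnbip1, which encodes ICAT, was 8.72, 8.82 and 8.81 on the beta-catenin, 8.76, 8.65 and 8.95 on the ICAT and 8.62 to 8.67 on the control arrays. The difference between the lines was -0.01 (SE 0.0908, adjusted p = 0.973). By limma the ICAT line did not pass against control (0.14, adjusted p = 0.256), while the beta-catenin line did (0.14, adjusted p = 0.0483). Neither of the other 2 probe sets of Ctnnb1 nor the other one of Ctnnbip1 was called between the lines. No source used here places these probes relative to the transfected sequences, so they do not check the labels, and the line names here are those of the labels.

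Among the components that hold or carry the Wnt signal, few differed. Of 31 tested of 33 listed destruction complex and nuclear factors, 1 was higher in beta-catenin and 2 were higher in ICAT cells. The list median was 0.00, beside -0.01 for all genes. Lef1, a DNA-binding partner of beta-catenin and itself a known Wnt target, was 6.92, 7.15 and 6.93 in beta-catenin and 6.50, 6.41 and 6.2 in ICAT cells, a 1.55-fold difference (0.63, SE 0.102, adjusted p = 0.00125). The arrays did not overlap, and only beta-catenin had risen above control. The other TCF factors tested were close to each other in both lines, at 8.28 and 8.20 for Tcf7l1 (adjusted p = 0.563) and 8.17 and 8.30 for Tcf7l2 (adjusted p = 0.211). Dvl1, which relays the signal from Frizzled, was 1.43-fold higher in ICAT cells (adjusted p = 0.00429), with beta-catenin cells below control. Tle2, a co-repressor that binds TCF factors, was 1.41-fold higher in ICAT cells (adjusted p = 0.0314), a call that was lost without either of beta-catenin replicates 1 and 3 or ICAT replicates 1 and 2 and with arrays centred on their median. The count of 1 higher in beta-catenin ranged from 1 to 6 over the alternatives, with 6 when all 9 arrays were in 1 fit, with array weights or without ICAT replicate 3.

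Wnt ligands differed at 4 of 21 tested genes of 26 listed. Wnt4 was 8.85, 9.02 and 8.83 in beta-catenin and 7.72, 7.57 and 7.38 in ICAT cells, a 2.54-fold difference (1.34, SE 0.103, adjusted p = 1.47e-05), and the ICAT level did not pass against control (adjusted p = 0.787). Wnt5a, a ligand best known for signalling without beta-catenin, went the other way, at 7.38, 7.68 and 7.32 in beta-catenin against 8.65, 8.80 and 8.81 in ICAT cells (-1.29, SE 0.104, adjusted p = 1.99e-05). It lay on opposite sides of control, 1.89-fold below in beta-catenin and 1.3-fold above in ICAT cells. Porcn, the enzyme that attaches the fatty acid to Wnt proteins, was 1.34-fold higher in ICAT (adjusted p = 0.00202). Wnt10b was 1.36-fold higher in beta-catenin (adjusted p = 0.0359), a call lost in 7 alternatives, among them the leaving out of any ICAT replicate or of beta-catenin replicate 1 or 3.

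Receptors were called mainly in the direction of beta-catenin. Of 19 receptors and co-receptors, all tested, 8 were higher in beta-catenin and 1 in ICAT cells. Fzd6, a Frizzled receptor, was 9.66, 9.70 and 9.65 in beta-catenin and 8.35, 8.58 and 8.76 in ICAT cells (1.11, SE 0.103, adjusted p = 4.9e-05). Both lines lay above control, 5.2-fold and 2.42-fold. Fzd7 (1.57-fold, adjusted p = 0.000936) and Fzd2 (1.54-fold, adjusted p = 0.000943) had the same arrangement. The 1 other probe set of Fzd7 was not called. Of the other 2 probe sets of Fzd6, 1 was called the same way, as were both other ones of Fzd2. Ror2, a receptor for Wnt5a, was 1.51-fold higher in beta-catenin (adjusted p = 0.0214), a call lost in 5 alternatives (without beta-catenin replicate 1 or 3, without ICAT replicate 2 or 3, and with the mean of its probe sets). Its relative Ror1 was 1.73-fold higher in ICAT cells (adjusted p = 0.000597), with both lines below control. The list median of 0.03 lay close to that of all genes, and 10 members were not called. At the filter of log2 7 on 3 arrays 13 were tested, with the same counts of 8 and 1 and a median of 0.53.

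Of 13 tested secreted and membrane antagonists (19 listed), 3 were higher in ICAT and 0 in beta-catenin cells by limma, and 0 were higher in beta-catenin at an unadjusted p under 0.05 too. Dkk2, a secreted ligand of LRP receptors, had the largest difference of any gene with both means above the filter. It was 5.94, 5.87 and 6.40 in beta-catenin, 10.74, 12.16 and 11.85 in ICAT and 11.28, 11.30 and 11.31 in control cells. The difference was -5.51 (SE 0.31, adjusted p = 2.59e-06), or 45.7-fold. The beta-catenin arrays lay far below every other array, while ICAT did not pass against control (0.28, adjusted p = 0.529). Apcdd1, an inhibitor at the membrane, was 1.4-fold higher in ICAT (adjusted p = 0.00412), below control in both lines. Kremen1, a partner of Dickkopf proteins, was 1.45-fold higher in ICAT (adjusted p = 0.00213), not called when the probe sets of a gene were averaged (adjusted p = 0.108).

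Target genes of the pathway did not move as 1 group. Of 36 listed genes 30 were tested, with 5 higher in beta-catenin, 9 higher in ICAT and a median of -0.09. Axin2, the target most often used as a readout, was 6.40, 6.48 and 6.33 in beta-catenin and 6.42, 6.48 and 6.22 in ICAT cells (0.03, SE 0.09, adjusted p = 0.855), and neither line passed against control. Id2, an inhibitor of helix-loop-helix factors, was the target furthest towards beta-catenin, at 11.43, 11.43 and 11.47 against 9.51, 7.88 and 8.24 in ICAT cells (7.47-fold, adjusted p = 0.000168). Ccn4, a secreted matricellular protein, was 2.46-fold higher in beta-catenin (1.30, SE 0.139, adjusted p = 0.000117). Myc was 1.25-fold higher there (0.32, SE 0.0727, adjusted p = 0.00746), from 11.48, 11.50 and 11.51 against 11.24, 11.11 and 11.19. Ccnd1, which encodes cyclin D1 and is often listed as a target, went the other way. It was 11.22, 11.27 and 11.42 in beta-catenin, 12.46, 12.63 and 12.64 in ICAT and 12.61 to 12.66 in control cells (-1.27, SE 0.0862, adjusted p = 7.18e-06). Fst, which encodes follistatin, a secreted binder of activin and BMP proteins, was 9.91-fold higher in ICAT (adjusted p = 6.03e-08), below control in both lines, 27.5-fold in beta-catenin and 2.77-fold in ICAT cells.

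Of the 12 largest differences towards beta-catenin among genes with both means above the filter, 7 had risen above control in both lines and further in beta-catenin. Thbs1, which encodes the matrix protein thrombospondin 1, was 13.40, 13.26 and 13.25 in beta-catenin, 11.10, 10.06 and 10.52 in ICAT and 9.13 to 9.22 in control cells (6.69-fold between the lines, adjusted p = 1.5e-05). Tgfbi, another secreted matrix protein, was 6.52-fold higher in beta-catenin (2.70, SE 0.147, adjusted p = 2.09e-06). Nrep, a small neuronal protein, was 9.58, 9.54 and 9.20 against 6.26, 5.87 and 6.25 (9.92-fold, adjusted p = 3.22e-07), with control under the filter at 4.37 to 4.70. Cxcl12, the chemokine that CXCR4 recognises, was 11.93, 11.88 and 11.80 against 9.86, 8.42 and 8.58 (7.56-fold, adjusted p = 0.000102), with control at 7.40 to 7.42. Dclk1, a kinase of the doublecortin family used as a marker of tuft cells and of tumour-initiating cells in the pancreas, was 10.03, 10.10 and 10.08 against 7.44, 6.76 and 6.93 (8.16-fold, adjusted p = 1.25e-06), with control at 5.41 to 5.83. In these genes the ICAT line was also above control, by 2.63-fold in Thbs1, 2.92-fold in Cxcl12 and 2.66-fold in Dclk1. Pwwp3b (7.56-fold) and Serpinb1a, a protease inhibitor (5.82-fold), shared the arrangement.

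The other 5 of these 12, with Id2 among them, did not pass against control in ICAT cells or lay below it there. Selp, the adhesion receptor P-selectin, was 11.18, 11.20 and 11.33 in beta-catenin against 8.19, 7.49 and 7.35 in ICAT and 7.61 to 7.81 in control cells (11.8-fold, adjusted p = 1.6e-06). Chrm1, a muscarinic acetylcholine receptor, was 9.10, 9.11 and 9.20 against 6.58, 6.52 and 6.37 (6.26-fold, adjusted p = 9.59e-08). Slc6a15, a transporter of neutral amino acids, led the group with 12.8-fold, and Pkp2, the desmosomal plakophilin 2, was 7.68-fold higher; both are described with the opposite-side genes. Among genes whose ICAT level was under the filter, Sprr1b, a precursor of the cornified envelope of squamous epithelium, was 9.38, 9.50 and 9.69 in beta-catenin and 4.74, 4.33 and 4.06 in ICAT cells, at least 23-fold higher (adjusted p = 9.59e-08). Its control level was also under the filter. Lhx2, a LIM homeobox factor, was at least 3.7-fold higher, Ces1g, a carboxylesterase, at least 2.51-fold, Lrrc75b at least 2.15-fold and Scube3, a secreted EGF-repeat protein, at least 1.91-fold.

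Of the 12 largest differences towards ICAT among genes with both means above the filter, 11 had fallen below control in beta-catenin cells. Slc14a1, a urea transporter, was 5.26, 5.88 and 5.47 in beta-catenin, 10.27, 10.75 and 10.40 in ICAT and 11.43 to 11.57 in control cells, a 30.7-fold difference (adjusted p = 1.12e-07). Bmp2, a BMP ligand, was 5.53, 5.15 and 4.97 against 8.65, 10.16 and 9.79, with control at 10.84 to 10.90 (20-fold, adjusted p = 1.29e-05). In both genes ICAT cells had also fallen below control, 2.02-fold for Slc14a1 and 2.5-fold for Bmp2. Csgalnact1, an enzyme of chondroitin sulphate synthesis, was 11.1-fold higher in ICAT (adjusted p = 2.23e-07), and ICAT did not pass against control (adjusted p = 0.267). Bhlhb9 was under the filter in beta-catenin cells, at 4.04, 4.66 and 4.24, and 8.92, 9.0 and 9.15 in ICAT cells, at least 16.3-fold higher (adjusted p = 9.59e-08), on opposite sides of control with ICAT 1.22-fold above. Pcdh17, a protocadherin, was at least 9.98-fold higher in ICAT. Crabp1, which binds retinoic acid in the cytosol, was the 1 gene of these 12 that had left control in ICAT cells only. It was 6.38, 6.64 and 6.57 in beta-catenin, near the control values of 6.63 to 6.80, and 9.58, 9.85 and 9.62 in ICAT cells (8.92-fold, adjusted p = 9.59e-08).

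The opposite-side genes included 51 at least 1.5-fold from control on both sides and 14 at least 2-fold. Of the 51, 6 had beta-catenin above and 45 had ICAT above. The comparisons with control share the same 3 arrays, which the choice of genes rests on, so the values against control are a description.

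Among genes with beta-catenin above and ICAT below control, Slc6a15 stood first. It was 8.57, 8.77 and 8.76 in beta-catenin, 6.40, 6.10 and 6.28 in control and 5.14, 4.62 and 5.30 in ICAT cells, 5.43-fold above and 2.36-fold below control (difference 3.68, SE 0.156, adjusted p = 4.49e-07). Pkp2 was 9.58, 9.60 and 9.69 in beta-catenin, 7.28, 7.41 and 7.36 in control and 6.47, 6.80 and 6.77 in ICAT cells, 4.83-fold above and 1.59-fold below (difference 2.94, SE 0.0998, adjusted p = 1.12e-07). Slc27a1, a fatty acid transport protein, was 10.27, 10.19 and 9.69 in beta-catenin, 9.37 to 9.45 in control and 8.38, 8.39 and 8.32 in ICAT cells (3.22-fold between the lines, adjusted p = 2.2e-05). Beta-catenin replicate 3 was the lowest of its line but still above every control array. Nqo1, a quinone reductase of the NRF2 response, was 2.76-fold higher in beta-catenin than in ICAT (adjusted p = 2.18e-05), 1.8-fold above and 1.53-fold below control. Id1, a relative of Id2, was 11.55, 11.62 and 11.60 in beta-catenin and 10.85, 9.38 and 9.77 in ICAT cells (3.02-fold, adjusted p = 0.00254), but its place on opposite sides was lost without any 1 control array, without ICAT replicate 2 or 3, and with all 9 arrays in 1 fit. The other 5 were between 2.06-fold and 2.62-fold apart: Faxc, Haus6 (a subunit of the augmin complex that branches spindle microtubules), Slc25a32 (a mitochondrial folate carrier), Nol11 (a factor for ribosomal RNA transcription) and Pus10 (a pseudouridine synthase).

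Among the genes with ICAT above and beta-catenin below control, Mmp13, a collagenase, was 4.25, 4.39 and 4.40 in beta-catenin, 8.88, 8.83 and 8.83 in control and 10.32, 10.02 and 9.29 in ICAT cells. The beta-catenin arrays were all under the filter, so the line difference was at least 29.4-fold (adjusted p = 2.29e-07), at least 14.4-fold below and 2.04-fold above control. Itgb8, an integrin subunit that activates latent TGF-beta, was 4.46, 4.59 and 4.56 in beta-catenin, 6.82, 6.78 and 7.04 in control and 8.14, 8.18 and 8.20 in ICAT cells, at least 9.02-fold apart (adjusted p = 1.83e-08). Bnc1, the zinc-finger protein basonuclin of stratified epithelium, was at least 8.96-fold higher in ICAT, 3.38-fold above control there. Wfdc2, a secreted whey acidic protein, was 8.62, 8.87 and 8.71 in beta-catenin, 10.51, 10.61 and 10.59 in control and 12.17, 11.89 and 11.88 in ICAT cells (9.45-fold, adjusted p = 9.59e-08). Efemp1, the matrix glycoprotein fibulin 3, was 8.73, 8.86 and 8.72 in beta-catenin, 10.58, 10.63 and 10.58 in control and 11.86, 12.11 and 11.77 in ICAT cells (8.81-fold, adjusted p = 9.59e-08).

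Epas1, which encodes the hypoxia-inducible factor HIF-2 alpha, was 7.61, 7.69 and 7.58 in beta-catenin, 8.78, 8.71 and 8.82 in control and 10.59, 10.68 and 10.45 in ICAT cells, 2.21-fold below and 3.48-fold above control (difference -2.94, SE 0.0837, adjusted p = 9.59e-08). Col1a2, a chain of type I collagen, was 10.87, 10.87 and 10.60 in beta-catenin, 12.14 to 12.20 in control and 13.48, 13.68 and 13.70 in ICAT cells (7.16-fold, adjusted p = 1.53e-07). Ifitm1, an interferon-induced membrane protein, was 8.80, 8.83 and 8.65 against 12.03, 11.48 and 11.22 (7.04-fold, adjusted p = 4.19e-06), around a control of 10.00 to 10.04. Fam43a was 6.38-fold apart (adjusted p = 3.12e-07). Slit2, a secreted guidance ligand for Robo receptors, was 4.87-fold apart (adjusted p = 8.4e-07), 2.32-fold below and 2.1-fold above control. Of the 20 genes named here on opposite sides, 19 stayed there in all 17 alternatives run, the exception being Id1. These 20 genes were picked for ranking highest by the smaller difference from control, which favours a stable place. The count does not carry over to other genes placed on opposite sides in this text, which were not followed singly through the alternatives. The whole group fell from 658 to between 359 and 386 genes when any control array was left out.

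**Figure D2:**
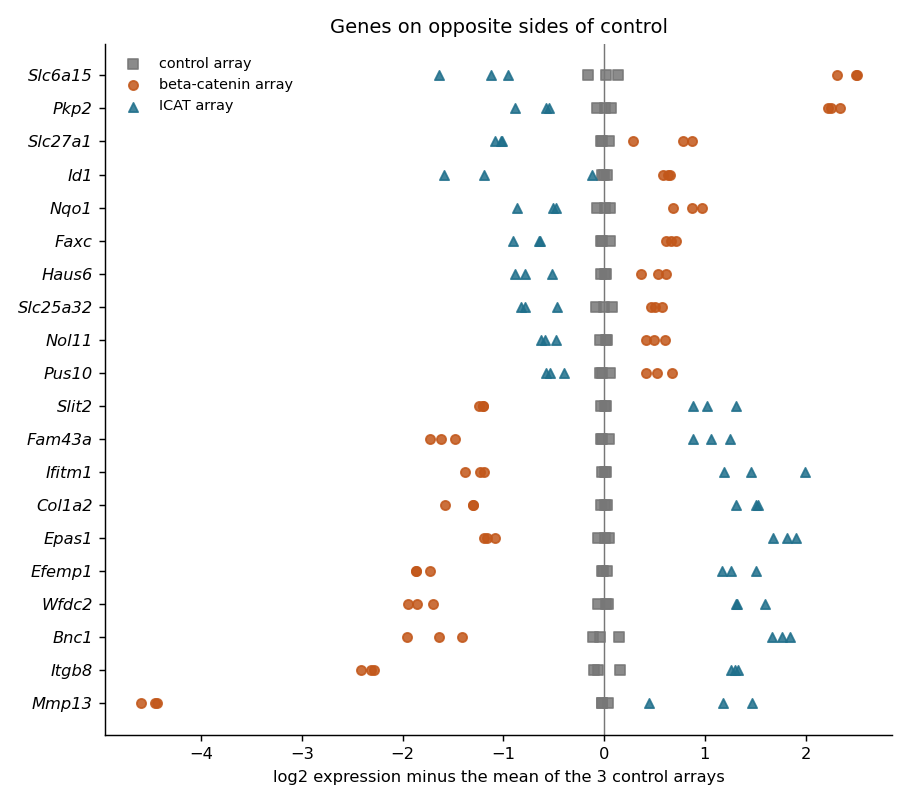
Log2 expression on each array minus the mean of the 3 control arrays for the 20 named genes on opposite sides of control; squares are control, circles beta-catenin and triangles ICAT arrays, and each point is 1 array. Slc6a15 and Pkp2 had the largest rises in beta-catenin cells and Mmp13 the deepest fall, while the highest ICAT array of Id1 lay just under the control arrays.

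Secreted proteases that cut the extracellular matrix carried some of the largest differences of the comparison. Matrix proteases and inhibitors gave 5 of 24 tested genes (29 listed) higher in beta-catenin and 8 higher in ICAT cells, with a median of -0.14. The share higher in beta-catenin lay near the 19.5% of all genes. Mmp3, stromelysin 1, was 5.88, 5.80 and 6.31 in beta-catenin, 11.08, 10.07 and 9.56 in ICAT and 9.55 to 9.58 in control cells (18.8-fold, adjusted p = 1.31e-05). Mmp10, stromelysin 2, was 7.52, 7.91 and 8.10 against 11.09, 11.23 and 10.71, with control at 10.80 to 10.96 (8.98-fold, adjusted p = 1.6e-06). Both had fallen in beta-catenin cells, 11.8-fold and 8.1-fold below control, and neither passed in ICAT cells. Adamts9, a protease of versican and aggrecan, was 2.76-fold higher in ICAT (adjusted p = 1.85e-06), on opposite sides of control. Proteases higher in beta-catenin cells were Mmp11, stromelysin 3, at 9.48, 9.35 and 9.22 against 7.94, 7.76 and 7.90 (2.79-fold, adjusted p = 4e-06), and Mmp2, gelatinase A, at 1.99-fold (adjusted p = 0.000234). For Mmp2 both lines were above control, 7.07-fold and 3.56-fold.

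Mmp13, Mmp3 and Mmp10 are members of a cluster of 10 matrix metalloprotease genes that follow each other on chromosome 9 in the gene table, with Mmp13 at position 1, Mmp3 at 4 and Mmp10 at 6. Of the other members, Mmp12, Mmp1a and Mmp20 were under the filter, and Mmp27 had no single-symbol probe set. Mmp8 (adjusted p = 0.308) and Mmp7 (adjusted p = 0.646) were not called. Mmp1b was called (adjusted p = 0.00751) with means of 3.90 and 4.28, both under 5. Of the 6 cluster members tested, Mmp13, Mmp3 and Mmp10 were at least 2-fold apart.

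The promoters of these 3 genes, the members with the largest differences, are shown with the letters TGANTCA, the binding motif of AP-1 (dimers of JUN and FOS proteins). The motif was also found in the windows of Mmp7, which was not called, and Mmp1b, so it does not set these 3 apart within the cluster. The windows run from 250 bases before to 50 bases after the start, 300 bases in all, from RefSeq on build GRCm38.p6, written 5′ to 3′ along the gene, and capitals mark the motif.
Mmp13 (chr9:7272264-7272563, plus strand): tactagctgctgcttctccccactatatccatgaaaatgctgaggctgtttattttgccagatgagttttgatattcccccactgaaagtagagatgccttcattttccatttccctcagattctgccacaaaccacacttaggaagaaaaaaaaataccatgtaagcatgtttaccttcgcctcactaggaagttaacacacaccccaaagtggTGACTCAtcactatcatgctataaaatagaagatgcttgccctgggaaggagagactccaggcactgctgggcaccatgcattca
Mmp3 (chr9:7445572-7445871, plus strand): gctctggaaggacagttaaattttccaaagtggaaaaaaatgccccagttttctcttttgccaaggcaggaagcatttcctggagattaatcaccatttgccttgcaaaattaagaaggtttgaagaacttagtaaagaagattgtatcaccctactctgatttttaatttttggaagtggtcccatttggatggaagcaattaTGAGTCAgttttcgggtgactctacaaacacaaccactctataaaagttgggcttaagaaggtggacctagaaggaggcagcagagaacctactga
Mmp10 (chr9:7502092-7502391, plus strand): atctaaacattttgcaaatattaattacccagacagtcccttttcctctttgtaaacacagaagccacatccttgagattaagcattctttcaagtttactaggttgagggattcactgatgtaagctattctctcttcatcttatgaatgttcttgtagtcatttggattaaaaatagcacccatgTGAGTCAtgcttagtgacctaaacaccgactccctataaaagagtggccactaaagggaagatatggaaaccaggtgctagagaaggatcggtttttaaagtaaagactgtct
The motif began 35 bases before the start in Mmp13, 46 in Mmp3, 63 in Mmp10, 63 in Mmp7 and 93 in Mmp1b. In a search of both strands it occurred in 45 of 291 promoters (15.5%) of genes at least 2-fold higher in ICAT, in 15 of 180 (8.33%) of genes at least 2-fold higher in beta-catenin and in 6.93% of the 12185 promoters of genes tested. Among opposite-side genes it was in 20 of 243 (8.23%) with ICAT above and in 11 of 302 (3.64%) with beta-catenin above. By list, it was in 0 of 19 promoters of immediate-early and ERK feedback genes and 0 of 11 of MHC class I genes. It was in 2 of 19 (10.5%) of Wnt target genes and 7 of 23 (30.4%) of interferon-stimulated genes. These shares are a description without a test, and a match is not a measured binding site. Among the AP-1 genes, of which not all are given here, Jun was 10.52, 10.56 and 10.66 in beta-catenin and 11.37, 11.69 and 11.66 in ICAT cells (1.99-fold, adjusted p = 7.25e-05). Fosl1 was 1.98-fold higher in ICAT (adjusted p = 7.62e-05), but below control in both lines, 2.88-fold in beta-catenin and 1.46-fold in ICAT cells. Junb went the other way, 1.59-fold higher in beta-catenin (adjusted p = 0.00143).

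The TCF and LEF motif CTTTGAT was searched in the same window. It was found on either strand in 9 of 180 promoters (5%) of genes at least 2-fold higher in beta-catenin, in 7 of 291 (2.41%) of genes at least 2-fold higher in ICAT and in 3.41% of all promoters of genes tested. Among opposite-side genes it was in 8 of 302 (2.65%) with beta-catenin above and in 7 of 243 (2.88%) with ICAT above. Among the 19 target genes of the Wnt list with a promoter window, 3 (15.8%) held it. The promoters of Cxcl12 and Dclk1, among the largest differences towards beta-catenin, and of Slc27a1, on opposite sides of control, are shown because they hold it, with the motif in capitals (as ATCAAAG, its reverse complement, in Cxcl12).
Cxcl12 (chr6:117168285-117168584, plus strand): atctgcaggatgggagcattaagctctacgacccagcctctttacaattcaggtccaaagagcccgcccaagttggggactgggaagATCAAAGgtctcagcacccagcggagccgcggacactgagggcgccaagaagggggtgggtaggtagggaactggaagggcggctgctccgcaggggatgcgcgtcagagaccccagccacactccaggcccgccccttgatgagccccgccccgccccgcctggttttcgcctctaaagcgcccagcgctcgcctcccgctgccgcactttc
Dclk1 (chr3:55242114-55242413, plus strand): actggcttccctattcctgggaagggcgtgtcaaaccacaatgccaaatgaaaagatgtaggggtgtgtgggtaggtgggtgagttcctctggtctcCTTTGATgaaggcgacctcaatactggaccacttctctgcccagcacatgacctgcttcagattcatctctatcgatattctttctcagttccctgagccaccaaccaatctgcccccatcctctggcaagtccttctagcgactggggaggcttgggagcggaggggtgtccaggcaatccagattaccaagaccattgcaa
Slc27a1 (chr8:71570344-71570643, plus strand): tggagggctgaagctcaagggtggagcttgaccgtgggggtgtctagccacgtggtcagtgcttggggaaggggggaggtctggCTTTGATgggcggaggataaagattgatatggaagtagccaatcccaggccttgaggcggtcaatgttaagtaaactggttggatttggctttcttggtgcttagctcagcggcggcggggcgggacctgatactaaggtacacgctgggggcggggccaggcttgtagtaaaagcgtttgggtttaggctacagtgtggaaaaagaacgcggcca
The motif lay 163, 153 and 166 bases before the start in Cxcl12, Dclk1 and Slc27a1. A second RefSeq window of Dclk1, from another start, had no match. Selp held the same reverse complement 209 bases before its start.

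Collagens and their cross-linking enzymes were more often higher in ICAT cells, with 16 of 27 tested genes (28 listed) higher there, 5 higher in beta-catenin and a median of -0.42. The count of 16 was 11 without beta-catenin replicate 2 or 3, 12 without ICAT replicate 2 and 13 with the mean of all probe sets of a gene. The count of 5 was 3 without beta-catenin replicate 3. Col8a1, a short-chain collagen, was 8.57, 8.74 and 8.54 in beta-catenin, 9.57 to 9.70 in control and 10.72, 10.64 and 10.69 in ICAT cells (4.19-fold, adjusted p = 2.29e-07). Col11a1, a fibrillar chain, was 3.67-fold higher in ICAT (adjusted p = 1.92e-05), and Loxl3, a lysyl oxidase that cross-links collagen, 2.92-fold (adjusted p = 2.4e-06). Of the listed genes, 5 lay on opposite sides of control, among them Col1a2, Col8a1 and Loxl3. Col6a3, a chain of the beaded-filament collagen VI, went towards beta-catenin at 9.69, 9.74 and 9.72 against 8.32, 8.69 and 8.46 (2.34-fold, adjusted p = 1.9e-05), with both lines above control. Col3a1, of type III collagen, was 1.87-fold higher in ICAT (adjusted p = 0.000165), on opposite sides of control. Fibroblast markers, a list that overlaps these genes, gave 5 of 11 tested genes (13 listed) higher in ICAT and 1 in beta-catenin, with a median of -0.72. That median was -0.30 without ICAT replicate 1 and -0.36 with the mean of all probe sets of a gene. The summed mesenchymal or fibroblast markers given above are a different set from this list. That set holds Vim, its highest member, and also Col1a1, Col1a2 and Col3a1, so its sum is not separate from the collagens. The part of fibroblast markers in the difference was not tested.

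Matricellular proteins and glycoproteins split evenly, with 6 of 21 tested genes (25 listed) higher in beta-catenin and 7 higher in ICAT cells, and 11 of these 13 were at least 2-fold apart. On the beta-catenin side stood Thbs1 and Tgfbi and also Tnc, which encodes tenascin C, at 10.19, 10.13 and 10.01 against 8.50, 8.29 and 8.53 (3.18-fold, adjusted p = 2.09e-06), with control at 6.57 to 6.93. Ccn1, a secreted protein and well-known YAP target, was 13.48, 13.46 and 13.43 against 11.52, 11.93 and 12.10 (3.05-fold, adjusted p = 2.21e-05). On the ICAT side stood Efemp1 and Mgp, the matrix Gla protein, at 8.11, 9.36 and 8.52 in beta-catenin, 12.07, 11.03 and 10.91 in ICAT and 6.59 to 6.66 in control cells (6.39-fold, adjusted p = 0.000349). Thbs2, the relative of Thbs1, was 4.7-fold higher in ICAT (adjusted p = 1.37e-06). Fn1, fibronectin, was 11.50, 11.53 and 11.42 against 13.38, 13.03 and 12.99 (3.14-fold, adjusted p = 5.67e-06). Postn, periostin, was 5.84, 5.83 and 5.57 against 8.00, 7.07 and 7.23 (3.23-fold, adjusted p = 0.000253). Thbs2 and Fn1 lay on opposite sides of control, so the 2 thrombospondins were highest in different lines.

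**Figure D3:**
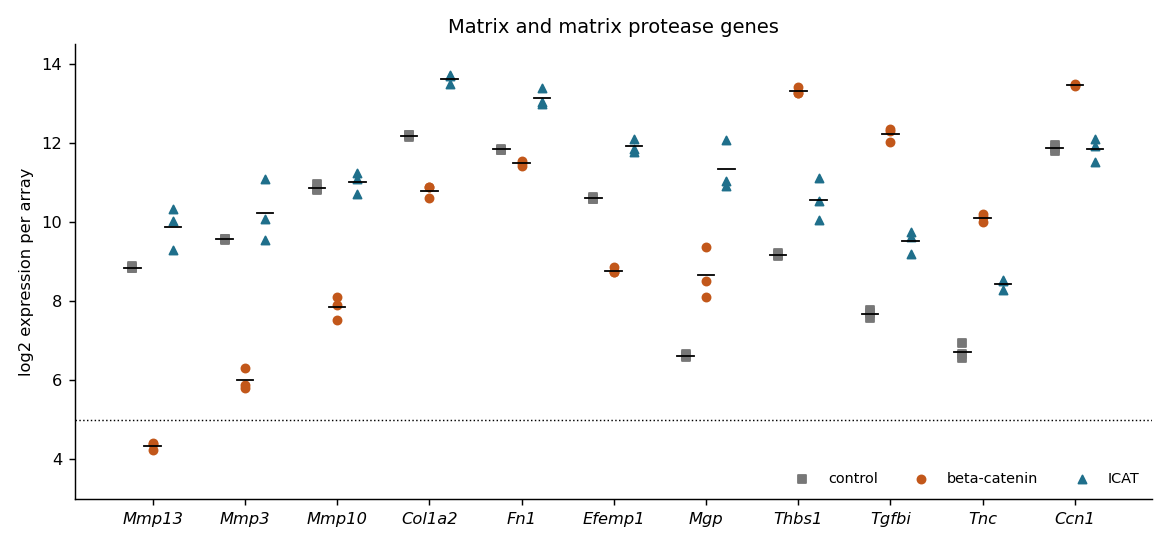
Log2 expression of 11 matrix and matrix protease genes on each of the 9 arrays; squares are control, circles beta-catenin and triangles ICAT arrays, short lines are the means of 3 arrays, and the dotted line is the filter at 5. Mmp13, Mmp3 and Mmp10 were lowest in beta-catenin cells, while Thbs1, Tgfbi, Tnc and Ccn1 were highest there.

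Integrins and basement membrane genes were called higher in ICAT at 12 of 26 tested genes (31 listed) and higher in beta-catenin at 1 (median -0.18). The first count was 8 without beta-catenin replicate 2. Itga8, an integrin chain that binds nephronectin and fibronectin, was 8.67, 8.82 and 8.90 in beta-catenin, 9.64 to 9.69 in control and 10.33, 10.41 and 10.35 in ICAT cells (2.97-fold, adjusted p = 1.6e-06). Itga6, a laminin receptor chain, was 2.86-fold higher in ICAT (adjusted p = 3.73e-06), with both lines below control. Lamb1, a laminin chain, was 2.47-fold higher in ICAT (adjusted p = 3.41e-06).

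Proliferation genes ran towards beta-catenin. Of 27 tested G2/M and mitosis genes (28 listed), 25 were higher in beta-catenin and 0 were higher in ICAT, with a median of 0.60. In 23 of them ICAT lay below control and in 12 beta-catenin lay above it, and 9 were on opposite sides. Kif11, a spindle motor, was 9.74, 9.74 and 9.84 in beta-catenin, 9.28 to 9.41 in control and 8.72, 8.66 and 8.98 in ICAT cells (1.98-fold, adjusted p = 6.35e-05). Birc5, which encodes survivin, was 11.53, 11.54 and 11.57 against 10.38, 10.51 and 10.90 (1.93-fold, adjusted p = 0.000331). Nusap1, a spindle protein, was 1.9-fold higher (adjusted p = 8.22e-05) and Aurkb, a mitotic kinase, 1.75-fold (adjusted p = 0.00119). None of the 27 reached 2-fold. By limma 0 were higher in ICAT at an unadjusted p under 0.05 as well, and the count of 25 ranged from 24 to 26 over the 14 alternatives run for the direct comparison.

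G1/S and DNA replication genes were higher in beta-catenin at 19 of 29 tested genes (30 listed) and higher in ICAT at 1, with a median of 0.46. ICAT lay below control in 24 and above it in 0, while beta-catenin lay above it in 11 and below it in 9. Prim1, a primase subunit, was 10.68, 10.71 and 10.85 in beta-catenin, 10.32 to 10.34 in control and 9.67, 9.60 and 9.99 in ICAT cells (1.99-fold, adjusted p = 0.000141). Cdc6, which loads the replicative helicase, was 1.86-fold higher (adjusted p = 0.000477). Mcm5 and Mcm3, subunits of that helicase, were 1.82-fold (adjusted p = 4.09e-05) and 1.79-fold higher (adjusted p = 0.000239). E2f2, a factor of the G1/S programme, was the 1 gene higher in ICAT (1.36-fold, adjusted p = 0.00971).

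Among the regulators that act before this programme, more were higher in ICAT than in beta-catenin, with both activators and inhibitors among them. Of 14 tested G1 cyclins, CDKs and CDK inhibitors (15 listed), 7 were higher in ICAT and 1 in beta-catenin. Cyclins D1 and D2 were both lower in beta-catenin: beside Ccnd1, Ccnd2 was 9.57, 9.66 and 9.74 against 10.53, 10.38 and 10.53 (1.77-fold, adjusted p = 7.68e-05). Their kinase Cdk6 was 1.96-fold higher in ICAT (adjusted p = 0.000179), and its relative Cdk4 1.42-fold higher in beta-catenin (adjusted p = 0.000973). Inhibitors of these kinases were also lower in beta-catenin. Cdkn2b, p15, was 10.00, 10.06 and 9.81 in beta-catenin, 11.15 to 11.18 in control and 11.96, 11.75 and 11.80 in ICAT cells (3.67-fold, adjusted p = 1.25e-06), on opposite sides of control. Cdkn1a, p21, was 7.98, 7.90 and 8.11 against 8.63, 9.41 and 9.25 (2.14-fold, adjusted p = 0.00106), with ICAT near the control values of 9.13 to 9.22.

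Ribosome biogenesis and RNA polymerase I genes were higher in beta-catenin at 25 of 32 genes, all tested, and higher in ICAT at 1 (median 0.56). ICAT lay below control in 28 of them, and beta-catenin lay below it in 13 and above it in 4. Of the 26 called genes, 12 had left control in ICAT cells only and 0 in beta-catenin cells only. Rrp12, a factor for ribosome export, was 8.59, 8.63 and 8.92 in beta-catenin, 8.58 to 8.66 in control and 7.20, 6.91 and 7.46 in ICAT cells (2.87-fold, adjusted p = 4.88e-05). Nop16, a nucleolar protein, was 9.93, 9.90 and 9.99 against 8.56, 8.51 and 9.03, with control at 10.48 to 10.50 (2.37-fold, adjusted p = 9.01e-05). Taf1d, a subunit of the polymerase I selectivity factor, was 2.39-fold higher in beta-catenin (adjusted p = 1.78e-05), and Bop1, needed for the large subunit, 1.98-fold (adjusted p = 5.65e-05). Taf1b, another subunit of the selectivity factor, was the 1 gene higher in ICAT (1.55-fold, adjusted p = 0.000439).

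**Figure D4:**
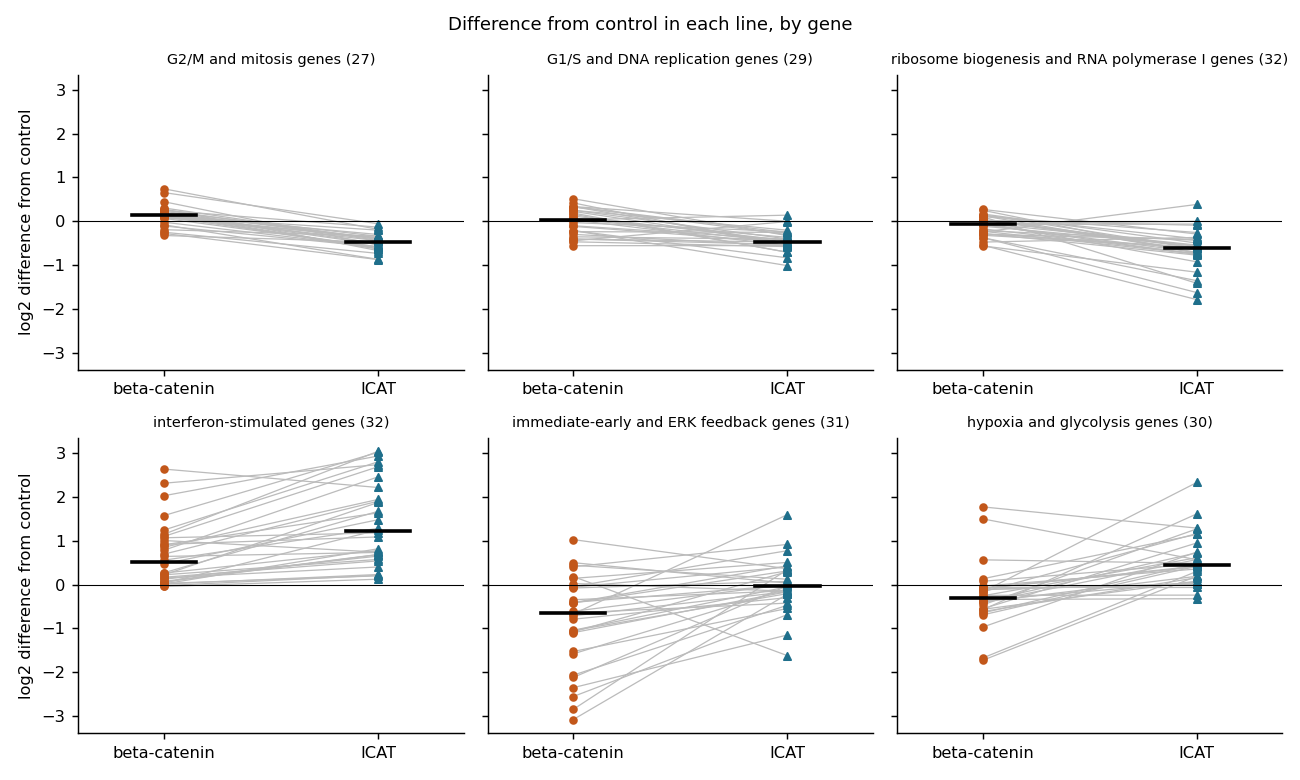
Log2 difference from control in beta-catenin (circles) and ICAT cells (triangles) for every tested gene of 6 lists, with a line joining the 2 values of a gene and thick bars at the medians; both lines share the same control arrays. Medians in ICAT cells were -0.48 for G2/M, -0.48 for G1/S, -0.61 for ribosome biogenesis, 1.21 for interferon-stimulated, -0.03 for immediate-early and ERK feedback, and 0.45 for hypoxia and glycolysis genes.

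Immediate-early and ERK feedback genes were higher in ICAT at 23 of 31 tested genes (33 listed) and higher in beta-catenin at 4, with a median of -0.73. Beta-catenin lay below control in 21 and ICAT below it in 6 and above it in 9, and 13 of the called genes had left control in beta-catenin cells only. Etv5, an ETS factor induced by ERK signalling, was 6.33, 6.73 and 6.62 in beta-catenin, 9.31 to 9.50 in control and 9.62, 9.79 and 9.85 in ICAT cells (9.15-fold, adjusted p = 1.44e-07). Spry4, a feedback inhibitor of receptor tyrosine kinases, was 5.30, 5.97 and 5.88 against 8.19, 9.08 and 8.47 (7.27-fold, adjusted p = 2.02e-05). Egr1, an immediate-early factor, was 8.10, 8.65 and 8.51 in beta-catenin, 8.98 to 9.15 in control and 10.68, 10.82 and 10.57 in ICAT cells (4.82-fold, adjusted p = 3.8e-06). Dusp6, a phosphatase of ERK, was 2.59-fold higher in ICAT (adjusted p = 1.34e-05). Dusp9, of the same phosphatase family, was the largest exception, at 8.73, 8.88 and 9.02 against 6.84, 6.87 and 7.50 (3.5-fold higher in beta-catenin, adjusted p = 4.51e-05).

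Growth factor ligands and their binding proteins were tested as a separate list. In the EGF and IGF family list 12 of 25 tested genes (29 listed) were higher in ICAT and 4 in beta-catenin (median -0.30). The count of 4 was 2 without beta-catenin replicate 1 or ICAT replicate 3. Hbegf, an EGF receptor ligand, was 7.99, 8.12 and 8.32 in beta-catenin against 9.90, 10.45 and 10.36 in ICAT and 10.23 to 10.30 in control cells (4.26-fold, adjusted p = 8.23e-06). Ereg, epiregulin, was 3.66-fold higher in ICAT (adjusted p = 9.69e-06). Errfi1, an intracellular inhibitor of EGF receptors, was 5.44-fold higher in ICAT (adjusted p = 9.09e-07), on opposite sides of control. Igfbp3, which binds IGF in the medium, was under the filter in beta-catenin cells and at least 3.63-fold higher in ICAT (adjusted p = 1.34e-05).

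Hypoxia and glycolysis genes were higher in ICAT at 22 of 30 tested genes (32 listed) and higher in beta-catenin at 2, with a median of -0.71. In 8 of them (Eno2, Ndrg1, Vegfa, Ankrd37, Bnip3, Egln3, Pdk1 and P4ha1) the lines lay on opposite sides of control. Aldoc, an aldolase of glycolysis, was 6.98, 6.95 and 6.89 in beta-catenin, 6.95 to 7.19 in control and 9.51, 9.49 and 9.31 in ICAT cells (5.65-fold, adjusted p = 9.99e-08), a rise in ICAT cells only. Its 1 other probe set was not called. Eno2, an enolase, was 5.76, 5.75 and 5.94 against 7.73, 8.20 and 8.09 (4.57-fold, adjusted p = 2.27e-06). Slc2a1, the glucose transporter GLUT1, was 8.91, 9.0 and 8.95 against 10.69, 11.16 and 10.93, with control at 10.58 to 10.70 (3.94-fold, adjusted p = 2.83e-06), a fall in beta-catenin cells only. Adm, the peptide adrenomedullin, was 3.79-fold higher in ICAT (adjusted p = 8.13e-06), and Vegfa, the endothelial growth factor, 3.28-fold (adjusted p = 4.5e-06). Pfkfb3 and Pfkp, which set the flux at phosphofructokinase, were the 2 genes higher in beta-catenin, by 1.91-fold (adjusted p = 0.000918) and 1.4-fold (adjusted p = 0.00141). Epas1, described above, shared the direction of the list and was no member of it.

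Interferon-stimulated genes were higher in ICAT at 20 of 32 tested genes (36 listed) and higher in beta-catenin at 0, with a median of -0.62. At an unadjusted p under 0.05 limma gave 22 and 0. Both lines lay above control: beta-catenin in 19 genes and ICAT in 27, and neither lay below it in any. Usp18, a brake on interferon receptor signalling, was 5.93, 6.33 and 6.13 in beta-catenin, 9.15, 7.38 and 7.54 in ICAT and 4.80 to 5.09 in control cells (3.72-fold, adjusted p = 0.00396). Ifi27 was 9.44, 9.58 and 9.33 against 11.64, 10.83 and 10.91 (3.19-fold, adjusted p = 0.000153), and Oasl2, of the oligoadenylate synthetase family, 3.01-fold higher in ICAT (adjusted p = 0.00123). Ifit3, an antiviral protein with tetratricopeptide repeats, was 6.53, 6.91 and 6.78 in beta-catenin, 6.29 to 6.70 in control and 9.04, 8.03 and 8.12 in ICAT cells (3.15-fold, adjusted p = 0.000533). In each of these genes ICAT replicate 1 was the highest array. Without it, 20 genes were called higher in ICAT and 2 in beta-catenin, and the median was -0.44. Irgm1 and Gbp2, interferon-induced GTPases, had the higher mean in beta-catenin (9.65 against 9.39 and 9.15 against 8.72) and were not called (adjusted p = 0.206 and 0.39). They were the 2 genes called in that direction without ICAT replicate 1 (adjusted p = 0.0022 and 0.000258).

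The promoter of Ifit3 is shown because it holds the letters of the interferon-stimulated response element (ISRE) core, a pair of GAAA runs with any 2 bases between them, on its reverse strand in 2 places, here in capitals as TTTCACTTTC and TTTCAGTTTC. The window and source are as above.
Ifit3 (chr19:34583279-34583578, plus strand): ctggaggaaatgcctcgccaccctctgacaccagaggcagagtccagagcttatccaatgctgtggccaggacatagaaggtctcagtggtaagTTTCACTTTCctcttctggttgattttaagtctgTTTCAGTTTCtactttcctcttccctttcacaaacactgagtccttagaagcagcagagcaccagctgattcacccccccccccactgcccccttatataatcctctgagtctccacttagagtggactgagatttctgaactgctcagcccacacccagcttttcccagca
The matches began 156 and 122 bases before the start. The letters were found on either strand in 14 of 23 promoters (60.9%) of the interferon-stimulated genes tested, against 3.55% of all promoters of genes tested. They were in 24 of 291 promoters (8.25%) of genes at least 2-fold higher in ICAT and in 6 of 180 (3.33%) of genes at least 2-fold higher in beta-catenin, with no test.

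Antigen presentation by MHC class I differed at fewer genes, with 5 of 13 tested genes (16 listed) higher in ICAT, 1 higher in beta-catenin and a median of -0.14. Psmb9, a subunit of the immunoproteasome, was 6.59, 6.60 and 6.54 against 7.31, 6.87 and 6.91 (1.37-fold, adjusted p = 0.0116), and H2-M3, a non-classical class I chain, 1.36-fold higher in ICAT (adjusted p = 0.011). Tapbp, the peptide-loading protein tapasin, was 1.32-fold higher in ICAT (adjusted p = 0.0165), lost without beta-catenin replicate 1 or 3 and with the mean of its probe sets. Psmb10, another immunoproteasome subunit, was 1.27-fold higher in beta-catenin (adjusted p = 0.0301), lost without beta-catenin replicate 2 or 3 or ICAT replicate 2. The count of 5 was 3 without beta-catenin replicate 3.

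Chemokines, cytokines and NF-kB genes gave 9 of 27 tested genes (30 listed) higher in ICAT and 3 in beta-catenin (median -0.41). The median was -0.21 without ICAT replicate 1, and the count of 9 was 14 with array weights. Il33, an alarmin cytokine, was 3.53, 3.54 and 3.71 in beta-catenin, 3.60 to 3.82 in control and 5.29, 5.97 and 5.71 in ICAT cells, at least 1.58-fold higher (adjusted p = 1.22e-05). Lif, a cytokine of the IL-6 family, was 6.71, 6.95 and 7.34 against 8.62, 8.89 and 8.87 (3.46-fold, adjusted p = 2.5e-05), on opposite sides of control. Cxcl2, a neutrophil chemokine, was 2.12-fold higher in ICAT (adjusted p = 0.0385), lost without any 1 beta-catenin array and with centred arrays. Besides Cxcl12, Csf1, the macrophage growth factor, was higher in beta-catenin (1.35-fold, adjusted p = 0.0026), above control in both lines, and not called with the mean of its probe sets (adjusted p = 0.0517).

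Complement and acute-phase genes included some with a wide spread among ICAT arrays. Of 14 tested genes (19 listed), 5 were higher in ICAT and 1 in beta-catenin, with a median of -0.59 and of -0.17 without ICAT replicate 1, and 5 were also called higher in ICAT without it. The 1 gene higher in beta-catenin was not called without any 1 beta-catenin array or ICAT replicate 3, nor with arrays centred on their median. C1s1, a protease of the classical complement pathway, was 6.46, 7.0 and 6.62 in beta-catenin, 10.16, 8.84 and 8.52 in ICAT and 5.47 to 6.04 in control cells (5.57-fold, adjusted p = 0.000569). Steap4, a metalloreductase induced by inflammation, was 7.17, 7.92 and 7.27 against 11.24, 9.39 and 8.96 (5.31-fold, adjusted p = 0.00396). Cp, the copper protein ceruloplasmin, was 3.35-fold higher in ICAT (adjusted p = 4.88e-05), and C1ra, which activates C1s, 2.39-fold (adjusted p = 0.0141). Lcn2, lipocalin 2, was 11.36 on ICAT replicate 1 and 5.75 and 5.03 on the other two, against 5.08, 5.39 and 5.01 in beta-catenin cells, and was not called (adjusted p = 0.236). Saa3, a serum amyloid, was 12.11, 7.66 and 7.60 in ICAT and 7.47, 7.77 and 7.34 in beta-catenin cells, and was not called either (adjusted p = 0.257). These 2 genes were high on 1 library of the 9.

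Genes of the ATF4 response to amino acid shortage and stress were higher in ICAT at 11 of 24 tested genes (25 listed) and higher in beta-catenin at 0 (median -0.45). At an unadjusted p under 0.05 limma gave 15 and 0. The count of 11 was 17 without ICAT replicate 1, and 2 genes were higher in beta-catenin without ICAT replicate 3. Vldlr, a lipoprotein receptor, was 6.45, 6.54 and 6.66 in beta-catenin, 5.88 to 6.28 in control and 8.56, 9.0 and 8.71 in ICAT cells (4.62-fold, adjusted p = 1.6e-06). Ddit3, the stress factor CHOP, was 8.31, 8.20 and 8.17 against 9.23, 9.68 and 9.79 (2.53-fold, adjusted p = 7.45e-05). Trib3, a pseudokinase, was 7.61, 7.62 and 7.80 against 8.31, 9.89 and 10.23 (3.48-fold, adjusted p = 0.00617), with ICAT replicate 1 the lowest of its line. Ddit4, an inhibitor of mTORC1, was 2.81-fold higher in ICAT (adjusted p = 5.86e-05), on opposite sides of control. ER chaperone genes gave 5 of 20 (all listed were tested) higher in ICAT and 0 in beta-catenin, 25% called beside 34.7% of all genes. Dnajb9, a co-chaperone, led them at 8.45, 8.54 and 8.63 against 9.69, 9.86 and 9.87 (2.4-fold, adjusted p = 6.93e-06). Pdia6, a disulphide isomerase, was 1.64-fold higher in ICAT (adjusted p = 0.00601). Edem1 and Sel1l, which clear misfolded proteins, were 1.44-fold (adjusted p = 0.0248) and 1.37-fold higher (adjusted p = 0.0321), calls lost without 4 and 5 of the single arrays. At an unadjusted p under 0.05 limma gave 8 and 0. The count of 5 was 14 (median -0.38 against -0.20 with all arrays) without ICAT replicate 1, 3 without ICAT replicate 3 and 2 without ICAT replicate 2 or beta-catenin replicate 1 or 3.

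In the TGF-beta and BMP list 10 of 31 tested genes (35 listed) were higher in beta-catenin and 8 in ICAT cells (median 0.11). The median was 0.05 without ICAT replicate 2 and 0.07 without ICAT replicate 3. The Id genes and Smad6, which BMP signalling is known to induce, were on the beta-catenin side. Smad6, an inhibitory Smad, was 9.30, 9.39 and 9.35 against 7.54, 7.12 and 7.19, with control at 6.94 to 7.02 (4.18-fold, adjusted p = 1.85e-06). Id3 was 12.14, 12.17 and 12.11 against 11.52, 9.63 and 10.14 (3.27-fold, adjusted p = 0.00618), and Id1 and Id2 are given above. In Id1, Id2 and Id3 ICAT replicate 1 was the highest of its line and lay nearest to the beta-catenin arrays. Tgfb2, a TGF-beta ligand, was 9.25, 9.28 and 9.24 against 7.10, 7.33 and 7.71 (3.67-fold, adjusted p = 1.03e-05). The ligand Bmp2 and the antagonist Fst were the genes furthest towards ICAT in the list. Without ICAT replicate 1 the counts were 14 and 9.

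YAP/TEAD target genes gave 11 of 25 (all listed were tested) higher in beta-catenin and 6 higher in ICAT (median 0.14). The median was 0.32 without ICAT replicate 1 and 0.08 without ICAT replicate 2. Besides Ccn1 and Tgfb2, Ajuba, a LIM protein that binds LATS kinases, was 10.90, 10.78 and 10.81 against 9.28, 9.32 and 9.71 (2.63-fold, adjusted p = 2.41e-05), on opposite sides of control. Igfbp3 was the member furthest towards ICAT. Contractile and SRF-dependent genes gave 12 of 25 higher in beta-catenin and 3 in ICAT cells (median 0.10), all listed genes being tested. Acta2, smooth muscle actin, was 9.43, 9.16 and 9.02 against 8.37, 7.77 and 8.05, with control at 7.87 to 7.91 (2.21-fold, adjusted p = 0.000415). Neither of its other 2 probe sets was called. Myl9, a myosin light chain, was 1.8-fold higher (adjusted p = 0.000256) and Myh10, non-muscle myosin IIB, 1.67-fold (adjusted p = 7.27e-05). Mylk, the kinase of that light chain, was the largest exception, 3.97-fold higher in ICAT (adjusted p = 1.23e-05) and on opposite sides of control.

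Neither epithelial nor mesenchymal genes moved as a block. In the EMT list 9 of 19 tested genes (20 listed) were higher in ICAT and 5 in beta-catenin (median -0.25, and -0.09 with the mean of all probe sets of a gene), and 6 lay on opposite sides of control. Snai2, a repressor of epithelial genes, was 9.52, 9.66 and 9.62 in beta-catenin and 10.64, 10.46 and 10.75 in ICAT cells (2.02-fold, adjusted p = 4.09e-05), while Snai1 was 1.4-fold higher in beta-catenin (adjusted p = 0.00392). Twist2 lay on opposite sides with beta-catenin above (1.67-fold, adjusted p = 0.000115). Foxc2, a forkhead factor, was 3.47-fold higher in ICAT (adjusted p = 5.54e-06). Vim was 1.29-fold higher in ICAT (adjusted p = 0.00362). In the list of epithelial junction, keratin and envelope genes, 9 of 27 tested genes (33 listed) were higher in ICAT and 4 in beta-catenin (median -0.07). Krt18, a keratin of simple epithelium, was 6.57, 6.90 and 6.89 in beta-catenin, 7.19 to 7.27 in control and 7.87, 8.92 and 8.75 in ICAT cells (3.3-fold, adjusted p = 0.000429), and its partner Krt8 was 1.91-fold higher in ICAT (adjusted p = 0.00051). Cldn6, a tight junction claudin, was 7.11-fold higher in ICAT (adjusted p = 7.03e-05), below control in both lines. Cldn1 was 3.51-fold higher in ICAT (adjusted p = 7.13e-05), but 1 of its other 3 probe sets was called in the opposite direction. Pkp2 and Sprr1b were the members furthest towards beta-catenin, so genes of the same list carried some of the largest differences each way.

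Guidance molecules gave 13 of 36 tested genes (40 listed) higher in ICAT and 7 in beta-catenin (median -0.07), and the 6 at least 2-fold apart were all higher in ICAT. For this list too the share higher in beta-catenin lay near the 19.5% of all genes. The count of 7 was 2 without beta-catenin replicate 2 and 3 without beta-catenin replicate 1 or 3 or ICAT replicate 2. Sema5a, a transmembrane semaphorin, was 5.96, 6.50 and 6.29 in beta-catenin, 8.51 to 9.10 in control and 8.87, 10.02 and 9.92 in ICAT cells (10.2-fold, adjusted p = 2.02e-05). Sema7a, a semaphorin with a lipid anchor, was 6.53-fold (adjusted p = 1.06e-05), Sema6d 4.71-fold (adjusted p = 1.12e-07) and Sema3a, a secreted repellent, 4.61-fold higher in ICAT (adjusted p = 4.25e-06). In Sema6d both lines lay below control.

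Notch and Hedgehog genes gave 6 higher each way among 29 tested (32 listed), 41.4% called beside 34.7% of all genes. Gli2, a transcription factor of the Hedgehog pathway, was 9.04, 8.87 and 9.01 in beta-catenin, 7.22, 6.68 and 7.0 in ICAT and 5.98 to 6.33 in control cells (4.02-fold, adjusted p = 4.99e-06). The Hedgehog-binding proteins Hhip (2.69-fold, adjusted p = 0.00895) and Gas1 (2.35-fold, adjusted p = 0.000234) were higher in ICAT cells. Hhip was 5.24, 5.40 and 5.10 in beta-catenin and 7.67, 6.25 and 6.10 in ICAT cells, with ICAT replicate 1 far above the rest of its line. Of the other 2 probe sets of Gas1, 1 was called the same way. Gli3, a relative of Gli2, was 1.82-fold higher in beta-catenin (adjusted p = 0.000126), and Gli1, a direct Hedgehog target, was not called (adjusted p = 0.932).

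Sterol and fatty acid synthesis gave 9 of 25 tested genes (29 listed) higher in beta-catenin and 4 in ICAT cells (median 0.23), and the 9 became 6 without beta-catenin replicate 1 or 2 or ICAT replicate 2 and 14 with array weights. Idi1, an enzyme of isoprenoid synthesis, was 1.81-fold higher in beta-catenin (adjusted p = 3.79e-05), on opposite sides of control, and Fasn, fatty acid synthase, 1.61-fold (adjusted p = 0.000313). Elovl6, which lengthens fatty acids, was 1.66-fold (adjusted p = 0.000297) and Sqle, of sterol synthesis, 1.64-fold higher in beta-catenin (adjusted p = 8.94e-05). Abca1, which exports cholesterol, was 9.24, 9.55 and 9.18 against 11.31, 10.92 and 10.64 (3.1-fold higher in ICAT, adjusted p = 7.03e-05). Oxidative phosphorylation gave 9 of 28 tested genes (30 listed) higher in beta-catenin and 0 in ICAT cells (median 0.14), led by the complex I subunits Ndufs1 (1.75-fold, adjusted p = 4.87e-05) and Ndufb8 (1.57-fold, adjusted p = 0.000185), both on opposite sides of control. Cox5b, of complex IV, and Cycs, cytochrome c, were 1.33-fold (adjusted p = 0.00188) and 1.32-fold higher in beta-catenin (adjusted p = 0.00352). In all, 32.1% of the tested members were called, beside 34.7% of all genes. At an unadjusted p under 0.05 limma gave 11 and 2. The count of 9 was 6 without beta-catenin replicate 2 and 14 with the mean of all probe sets of a gene.

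NRF2 and glutathione genes gave 8 of 28 tested (32 listed) higher in beta-catenin and 7 in ICAT cells (median -0.17, and -0.06 without ICAT replicate 1). With array weights 11 were higher in ICAT. Gsta4, a glutathione transferase, was 10.13, 10.43 and 10.76 against 9.19, 9.17 and 9.39 (2.28-fold, adjusted p = 0.000237), and Mgst3, of the microsomal type, was 8.28, 8.50 and 8.33 against 10.02, 10.20 and 10.25 (3.46-fold higher in ICAT, adjusted p = 1.56e-06). Mgst1, also microsomal, was 11.54, 11.61 and 11.37 in beta-catenin and 11.42, 9.98 and 9.98 in ICAT cells, with overlapping arrays (2.07-fold, adjusted p = 0.0308), a call lost without any 1 beta-catenin array and without ICAT replicate 2 or 3. In p53 target genes 4 of 19 tested (22 listed) were higher in beta-catenin and 5 in ICAT cells (median -0.01), 47.4% called beside 34.7% of all genes. Aen, an exonuclease, was 1.94-fold higher in beta-catenin (adjusted p = 0.000141), and Cdkn1a was furthest towards ICAT. Gadd45a, a stress sensor, was 1.69-fold higher in ICAT (adjusted p = 0.0122), lost without ICAT replicate 2, and Pmaip1, the cell death protein NOXA, at least 1.37-fold (adjusted p = 0.000812).

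Markers used for tumour-initiating cells gave 4 of 19 tested (22 listed) higher in beta-catenin and 5 in ICAT cells. That is 47.4% called, beside 34.7% of all genes, and the share higher in beta-catenin lay near the 19.5% of all genes. Dclk1 was furthest towards beta-catenin. Abcg2, a drug exporter, was 9.86, 9.92 and 9.94 against 8.83, 8.90 and 9.22 (1.9-fold, adjusted p = 0.000158). Klf4, a stem cell factor of the zinc-finger type, lay on opposite sides with ICAT above (1.79-fold, adjusted p = 0.000648). Sox2, a stem cell factor, was 9.14, 9.19 and 9.22 against 10.62, 10.30 and 10.23 (2.29-fold higher in ICAT, adjusted p = 3.34e-05), with ICAT near the control values of 10.26 to 10.35. Among acinar, ductal and endocrine genes 3 of 20 tested (32 listed) were higher in beta-catenin and 1 in ICAT cells. Pax6 (2.22-fold, adjusted p = 0.000123), Cela1 (1.75-fold, adjusted p = 7.47e-05) and Pdx1 (1.62-fold, adjusted p = 0.000197) were higher in beta-catenin, and Sox9, a ductal factor, was 1.44-fold higher in ICAT (adjusted p = 0.000642). The log2 of the summed acinar markers lay between 9.47 and 9.60 in beta-catenin, 8.83 and 8.97 in ICAT and 8.54 and 8.60 in control arrays. Of these 6 markers 4 had a probe set and 2 passed the filter, and the sum followed Cela1 (9.35 against 8.54). Cpa1 (5.40 and 5.42), Cpb1 (4.62 and 4.73) and Ptf1a (4.90 and 4.98) were not higher in beta-catenin. Without ICAT replicate 1, 3 of the acinar, ductal and endocrine genes were called higher in ICAT. Immune markers were called less often than all genes (20% beside 34.7%). They gave 2 of 10 tested (13 listed) and endothelial markers 2 of 5 tested (8 listed) higher in ICAT, and 0 of either higher in beta-catenin, at an unadjusted p under 0.05 too. Those called were Cd68 (1.7-fold, adjusted p = 0.000391), Cd14 (1.33-fold, adjusted p = 0.0173), Tie1 (1.64-fold, adjusted p = 0.000234) and Emcn (at least 1.11-fold, adjusted p = 0.0287), with Cd14 lost without beta-catenin replicate 1 and Emcn lost in 5 alternatives.

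**Figure D5:**
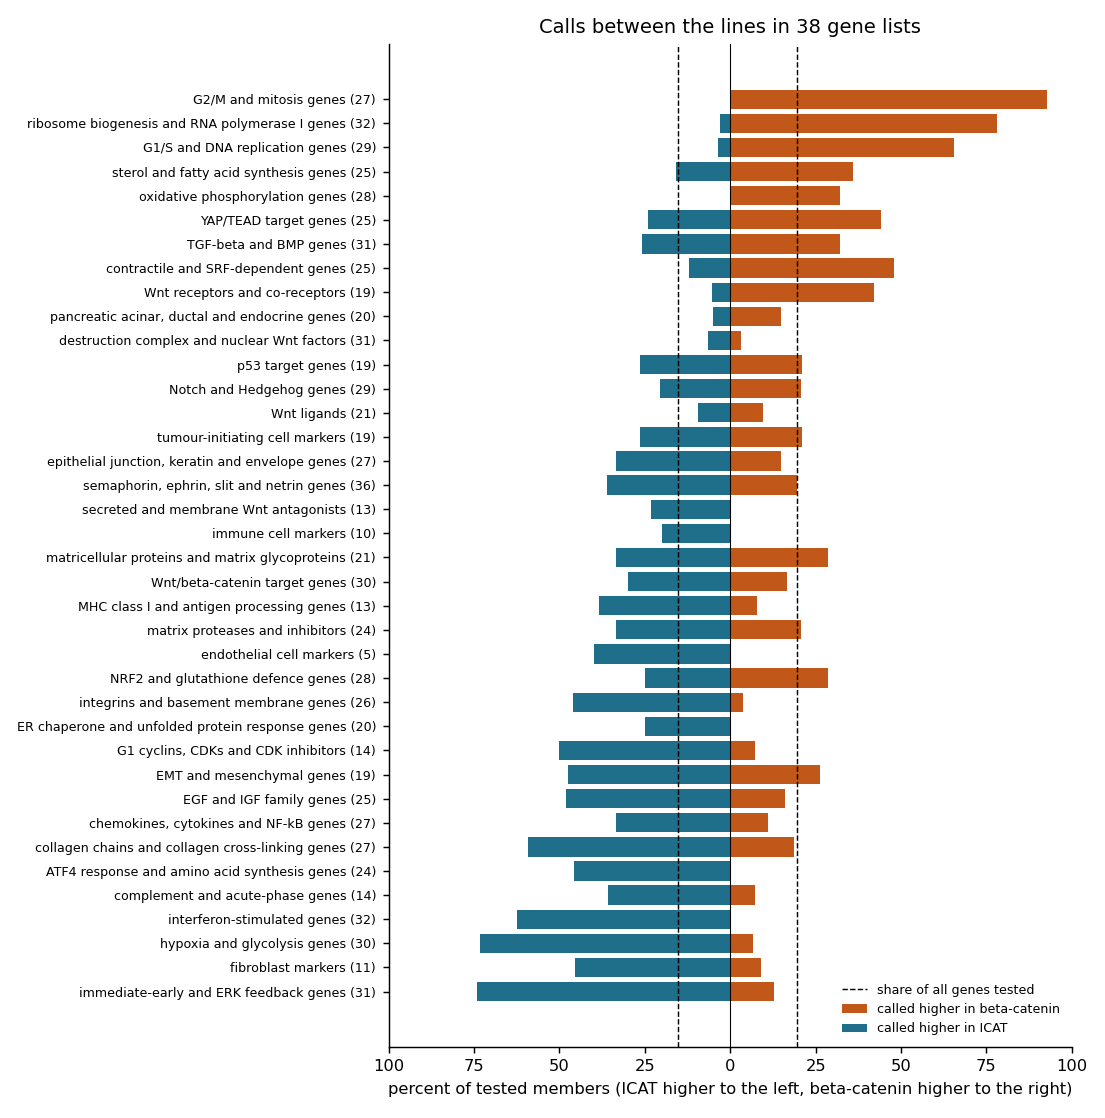
Share of the tested genes of each of 38 lists called higher in beta-catenin (orange, to the right) or higher in ICAT (blue, to the left), sorted by the median difference, with the number tested in brackets; dashed lines mark the shares over all genes, 19.5% and 15.2%. The G2/M list reached furthest to the right with 25 of 27 genes, and the list of immediate-early and ERK feedback genes furthest to the left with 23 of 31.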

How the data were processed

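Log2 expression values in the series matrix were deposited by the authors and had been made with RMA (affy), per the submitters' processing notes, which name no version. RMA normalizes all 9 arrays together and compresses low values, so folds are on that scale. Probe sets were named through the platform annotation: of 45037, 34945 had 1 gene symbol, 932 several and 9160 none. For each gene the single-symbol probe set with the highest mean over the 9 arrays was kept, with a log2 of at least 5 on 3 or more arrays. Each comparison was fitted on its own 6 arrays with limma 3.58.1 in R 4.3.3 (lmFit and eBayes, two-sided, Benjamini-Hochberg over all 15235 genes), and the code was tested on simulated data, where false calls were above the nominal share and smaller changes were recovered less often than larger ones. Where a group averaged under 5, its arrays below 5 were raised to 5 for the fold, which is then a lower bound ("at least"). No pair of arrays was identical, and with 3 arrays a line their number limits the precision.

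Named genes were, among called genes with non-overlapping arrays, the 12 largest differences each way with both means at 5 or more, the 5 largest each way with 1 mean under 5, up to 10 opposite-side genes each way ranked by the smaller difference from control, up to 4 called genes per list with uncalled members set beside them, and the pathway genes Ctnnb1, Ctnnbip1, Axin2, Lef1, Tcf7, Tcf7l1, Tcf7l2, Ccnd1, Myc, Cdh1 and Vim. Clone names and Xist were left out. A further 43 genes, mostly list members set beside these, were added after their values were seen. The comparison, the gene lists and the rules were chosen with earlier results of these data known, so no list is independent evidence. Same-numbered samples of the lines did not deviate together in every pair (correlations of 0.155, -0.129 and 0.410), so replicate numbers were not used as a block in the reported values. Alternatives covered all 9 arrays in 1 fit, filters, the block, array weights, an intensity trend, centring, the mean of probe sets and leaving out each array. Figures were drawn with matplotlib 3.10.9.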

Additional observations from a re-analysis of the deposited data

Results flagged for a closer look

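Probe sets outside the gene comparison also separated the lines. Among probe sets with no symbol or with several, 67 were called, at least 2-fold apart and had 1 line above every control array. Of 5249 tested probe sets with no symbol, 833 were called and 69 were at least 2-fold apart, with 20 higher in beta-catenin cells and 49 in ICAT. Of these, 46 had a line above all control arrays. Of 720 tested probe sets with several symbols, 214 were called and 23 were at least 2-fold apart, 8 and 15 by direction, and 21 of these had a line above all control arrays. Which transcripts they measure was not analysed here.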

How the results depend on the processing

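The count of called genes stayed within 1.5 times of 5292 in every alternative run, from 3962 without beta-catenin replicate 3 to 6566 with array weights, and the count at least 2-fold apart stayed between 471 and 638. Leaving out 1 array gave 3962 to 6020 called genes and 574 to 638 at least 2-fold apart. The count on opposite sides of control was 1013 with array weights, and 359 to 828 when 1 array was left out (361, 386 and 359 without control replicate 1, 2 or 3); the cause was not tested. With the replicate number as a block, 5752 genes were called, 605 at least 2-fold apart, and 694 lay on opposite sides; same-numbered samples correlated at 0.155, -0.129 and 0.410, and not every sample correlated best with its own number (beta-catenin 1 with ICAT 2, 0.333). No called gene named in the text changed direction. Of these genes, 14 lost their call in at least 1 alternative (Cd14, Csf1, Cxcl2, Edem1, Emcn, Gadd45a, Kremen1, Mgst1, Psmb10, Ror2, Sel1l, Tapbp, Tle2 and Wnt10b), and Gbp2 and Irgm1 were called only without ICAT replicate 1. At the stricter filter of log2 7 on 3 arrays 189 of 213 named genes were tested. Medians of several lists also moved by over 1.5 times with that filter. Among them were complement genes (-1.25), integrins (-0.29), endothelial markers (0.06) and Wnt receptors (0.53). Others were Wnt targets (-0.22), epithelial genes (-0.21), Notch and Hedgehog genes (0.18) and pancreatic genes (0.11). With the mean of probe sets the median of contractile genes also moved by over 1.5 times (0.16). Folds given as "at least" have no upper bound, since values under 5 were not ranked.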
